A study of Mus musculus with 48 samples.

Results

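NuRD is a chromatin complex that joins a nucleosome remodeling ATPase to histone deacetylases. Described here are 5 of its genes in mouse cerebellum: the ATPase gene Chd4, its paralogs Chd3 and Chd5, Gatad2a, which encodes a subunit that bridges the ATPase to the rest of the complex, and Cdk2ap1, which encodes a small accessory subunit. They were taken by name, and all 5 are in the table that compares conditional knockout (cKO) of Chd4 with wild type (WT), among its 5508 genes. That table lists 20.3% of the features tested, those at an adjusted p under 0.05 in the authors' own test. The 4 gene tables of the series together hold 6143 genes. The series has 48 samples, of which 20 are chromatin samples, 16 messenger RNA samples and 12 Sync-TRAP samples, the last being a pull-down of tagged ribosomes.

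The messenger RNA groups were cerebella of postnatal days 27 to 28: 4 Chd4 cKO, 4 WT, 4 WT of mice trained on a rotarod (a turning rod that tests motor learning) and 4 WT of mice at rest in the home cage. The Sync-TRAP groups were cerebella of postnatal day 12, 6 days after electroporation, with 3 pull-down and 3 input libraries of each genotype, Chd4 cKO and WT. No source used here gives the promoter that drives Cre, the deleted exons, the strain or the number of animals per library. The p-values below measure the spread between these samples. The effective depth was 13.7 to 15.5 M reads per library in cKO and 13.9 to 15.6 M reads in WT. Levels are log2 CPM, the log2 of reads scaled to library depth, and differences are cKO minus WT in log2 CPM ± SE from limma, adjusted over 27075 features. The words rose and fell are kept for genes with a limma adjusted p under 0.05. Genes were listed for differing between genotypes in these libraries, so groups that do not overlap add no separate evidence. The share of all listed genes without overlap was not counted. Limma was fitted to the same libraries, so its p-values are not a check independent of the authors' test.

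CHD3, CHD4 and CHD5 proteins share chromodomains and a helicase-like motor, and are alternative ATPases of NuRD. The complex slides nucleosomes and removes acetyl groups from histones, and is best known for closing promoters and enhancers. Chd5 is known mainly from neurons and testis, and in the developing mouse cortex the paralogs are known to replace each other in NuRD.

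The start regions of 4 of the 5 genes are shown because these genes moved in both directions. RefSeq (build GRCm38.p6) gives 300 bases, 250 before and 50 after a start site, for Chd4, Chd5, Gatad2a and Cdk2ap1. The first listed start site of each is printed 5′ to 3′, and capitals mark the GC box GGGCGG on either strand.
Chd4, chr6:125095731-125096030, plus strand: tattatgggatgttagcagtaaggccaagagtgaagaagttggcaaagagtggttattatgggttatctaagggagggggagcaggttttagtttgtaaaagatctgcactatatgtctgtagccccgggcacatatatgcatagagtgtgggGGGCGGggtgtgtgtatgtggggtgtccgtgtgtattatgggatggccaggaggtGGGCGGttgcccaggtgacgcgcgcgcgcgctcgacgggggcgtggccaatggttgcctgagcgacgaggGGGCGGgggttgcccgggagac
Chd5, chr4:152338401-152338700, plus strand: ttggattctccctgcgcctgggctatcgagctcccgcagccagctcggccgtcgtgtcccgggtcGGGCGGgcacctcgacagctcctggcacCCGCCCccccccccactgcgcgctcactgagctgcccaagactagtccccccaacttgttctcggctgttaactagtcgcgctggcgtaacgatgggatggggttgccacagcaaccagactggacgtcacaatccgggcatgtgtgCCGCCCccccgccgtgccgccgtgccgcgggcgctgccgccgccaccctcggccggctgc
Gatad2a, chr8:69996335-69996634, minus strand: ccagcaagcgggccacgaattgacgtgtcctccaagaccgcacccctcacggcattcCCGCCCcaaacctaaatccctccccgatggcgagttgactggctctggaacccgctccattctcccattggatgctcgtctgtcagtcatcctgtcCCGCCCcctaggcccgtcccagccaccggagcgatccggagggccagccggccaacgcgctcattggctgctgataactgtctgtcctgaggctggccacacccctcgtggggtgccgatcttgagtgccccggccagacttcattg
Cdk2ap1, chr5:124354579-124354878, minus strand: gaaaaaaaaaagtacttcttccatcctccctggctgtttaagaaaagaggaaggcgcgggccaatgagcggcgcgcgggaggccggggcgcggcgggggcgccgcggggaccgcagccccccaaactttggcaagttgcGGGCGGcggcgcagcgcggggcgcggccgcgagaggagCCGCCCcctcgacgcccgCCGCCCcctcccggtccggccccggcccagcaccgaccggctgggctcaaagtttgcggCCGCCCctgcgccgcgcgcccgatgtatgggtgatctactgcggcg
All of these held more CG dinucleotides than the median promoter. Cdk2ap1 held 43 of them, Chd5 held 32, Gatad2a 21 and Chd4 17, against a median of 7 over 32817 promoters of the same length. Fewer were held by 97.4% of promoters for Cdk2ap1, 90.5% for Chd5, 75.2% for Gatad2a and 68.6% for Chd4. The GC box occurred 4 times in the Cdk2ap1 window, 3 times each in those of Chd4 and Chd5 and 2 times in that of Gatad2a, and 35.6% of all promoters hold it. The CRE core TGACG, searched on both strands, occurred 1 time each in the Chd4, Chd5 and Gatad2a windows and not in the Cdk2ap1 window (20.8% of all promoters), and it overlapped no GC box. The NRF1 palindrome, the ETS core CCGGAAG, the E-box CAGCTG and the TATA box TATAAA were found in none of the 4 windows, and in 4.59%, 8.86%, 16.3% and 13.6% of all promoters. A GC box was found in all 4 windows, of genes that rose and of genes that fell. No window was at hand for Chd3, which also rose. With 4 windows, and counts that change with the start site, these letters cannot show whether genes that rose and fell differ. RefSeq also gives a second start site for Chd4, Chd5 and Gatad2a. The second Gatad2a window held 4 GC boxes, 1 ETS core and no CRE core, and the second Chd4 window held 29 CG dinucleotides, while that of Chd5 had the same motif counts as its first.

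The deleted gene comes first, as the check of the labels. Chd4 (ENSMUSG00000063870) held 8.06, 7.90, 7.90 and 7.90 log2 CPM in cKO libraries 1 to 4, against 8.34, 8.45, 8.41 and 8.31 log2 CPM in WT libraries 1 to 4. The cKO libraries were all below the WT libraries, and cKO library 1 stood above the other 3. Chd4 fell by 0.44 ± 0.06 on the log2 scale (limma adjusted p = 0.00199, n = 4 per genotype, lower in all 4 cKO libraries), and the libraries still held 14223 Chd4 reads over the 4 cKO cerebella, against 19678 over the 4 WT cerebella. In whole cerebellum, fewer cells with Chd4 RNA and less of it per cell cannot be told apart. The count covers the gene as a whole, so which exons the remaining reads cover is not given in the files used.

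The paralog Chd3 (ENSMUSG00000018474) rose by 0.79 ± 0.05 (limma adjusted p = 2.14e-05). It held 9.01, 8.99, 8.98 and 8.99 log2 CPM in cKO libraries 1 to 4, against 8.27, 8.21, 8.19 and 8.15 log2 CPM in WT libraries 1 to 4. Every cKO library was above every WT library, and the cKO libraries were nearly equal. Their SD of 0.010 log2 was below the 0.017 that counting 7045 to 7876 reads gives by itself, while the WT SD of 0.047 was above its counting error of 0.022.

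Chd5 (ENSMUSG00000005045) moved most of the 5. It held 7.16, 7.26, 7.16 and 7.33 log2 CPM in cKO libraries 1 to 4, against 5.78, 5.60, 5.36 and 5.37 log2 CPM in WT libraries 1 to 4. The groups were far apart, and WT libraries 1 and 2 were higher than WT libraries 3 and 4. Chd5 rose by 1.70 ± 0.10 (limma adjusted p = 2.53e-05), with 8708 reads over the cKO libraries and 2736 over the WT libraries. Within libraries 1 and 2 the log2 difference was 1.52, and within libraries 3 and 4 it was 1.88. By the authors' deposited log2 fold change, Chd5 ranked 496, Chd3 1087 and Gatad2a 1467 among the 2990 genes listed as higher.

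Gatad2a (ENSMUSG00000036180), the bridging subunit, held 6.81, 6.65, 6.54 and 6.61 log2 CPM in cKO libraries 1 to 4, against 6.09, 6.24, 6.06 and 6.03 log2 CPM in WT libraries 1 to 4. The groups did not overlap, and cKO library 1 was the highest. Gatad2a rose by 0.55 ± 0.07 (limma adjusted p = 0.0019). Gatad2b, which encodes the alternative bridging subunit, is not listed in the table.

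Cdk2ap1 (ENSMUSG00000029394) was the least abundant of the 5, in reads, and fell the most. It held 2.96, 2.68, 2.77 and 2.94 log2 CPM in cKO libraries 1 to 4, against 3.47, 3.53, 3.85 and 3.79 log2 CPM in WT libraries 1 to 4. The cKO libraries were all lower, with 93 to 117 reads each, against 158 to 223 reads in each WT library. Cdk2ap1 fell by 0.82 ± 0.11 (limma adjusted p = 0.00158). The SD within cKO, 0.136 log2, was close to the counting error of 0.143, and within WT it was 0.190 against 0.107. The authors' deposited log2 fold change ranked Cdk2ap1 236 from the lowest and Chd4 751 from the lowest, among 2518 genes listed as lower.

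**Figure D1:**
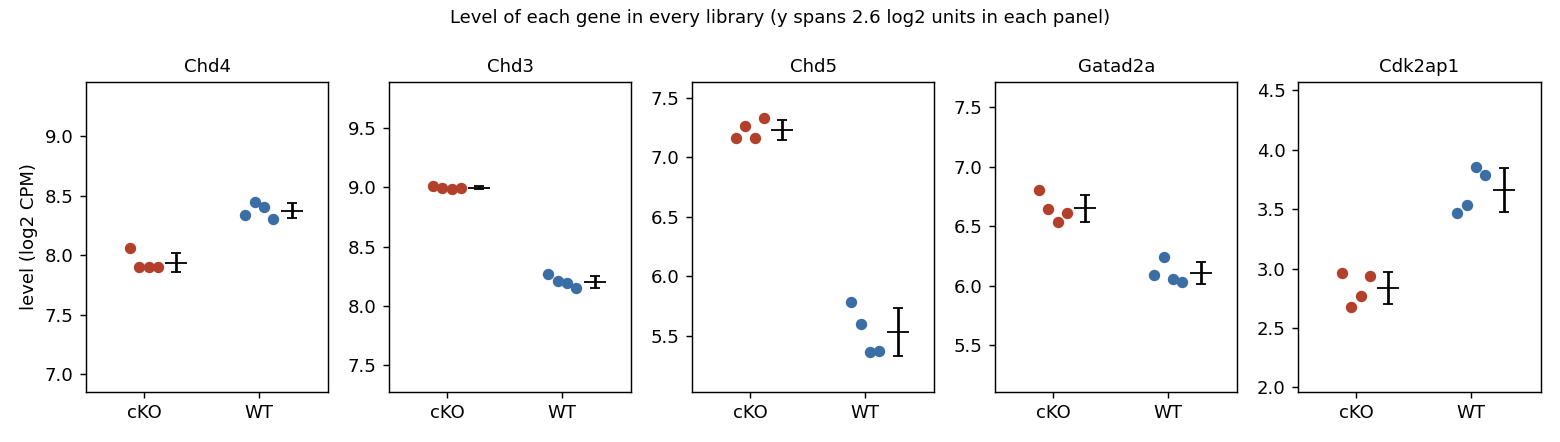
Level in log2 CPM (y axis, the same span in each panel) of Chd4, Chd3, Chd5, Gatad2a and Cdk2ap1 in the 4 cKO and 4 WT libraries (points, libraries 1 to 4 from left to right), with the mean and SD as bars. No panel shows an overlap between genotypes, with Chd4 and Cdk2ap1 lower in cKO and Chd3, Chd5 and Gatad2a higher. These genes were listed for differing between these libraries, so the lack of overlap adds no separate evidence.

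Differences between the paralogs were then measured as ratios within a library, which do not depend on how libraries were scaled. The log2 ratio of Chd3 to Chd4 was 1.05 ± 0.07 in cKO and -0.17 ± 0.07 in WT (SD, n = 4 each), a difference of 1.22 ± 0.05 (SE). The ratio of Chd5 to Chd4 was -0.71 ± 0.14 in cKO and -2.85 ± 0.21 in WT (SD), a difference of 2.14 ± 0.13 (SE). The ratio of Chd5 to Chd3 was -1.76 ± 0.08 in cKO and -2.68 ± 0.16 in WT (SD), a difference of 0.91 ± 0.09 (SE). A ratio between genes also holds their unequal transcript lengths, so only its change between genotypes is read here. Every cKO library was above every WT library in all 3 ratios. For Chd3 to Chd4 and Chd5 to Chd4 this separation follows from the levels. Chd4 was lower and its paralogs higher in every cKO library. The separation of Chd5 to Chd3 follows too, since the ranges of Chd5 and Chd3 given above leave no room for an overlap. The exact two-sided permutation p was 0.0286 for each of the 3 ratios (n = 4 per genotype), the smallest that 4 against 4 libraries allow. After Benjamini-Hochberg adjustment over the 3 ratios each was 0.0286. These tests add no support beyond the levels, so the ratios are given as a description.

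**Figure D2:**
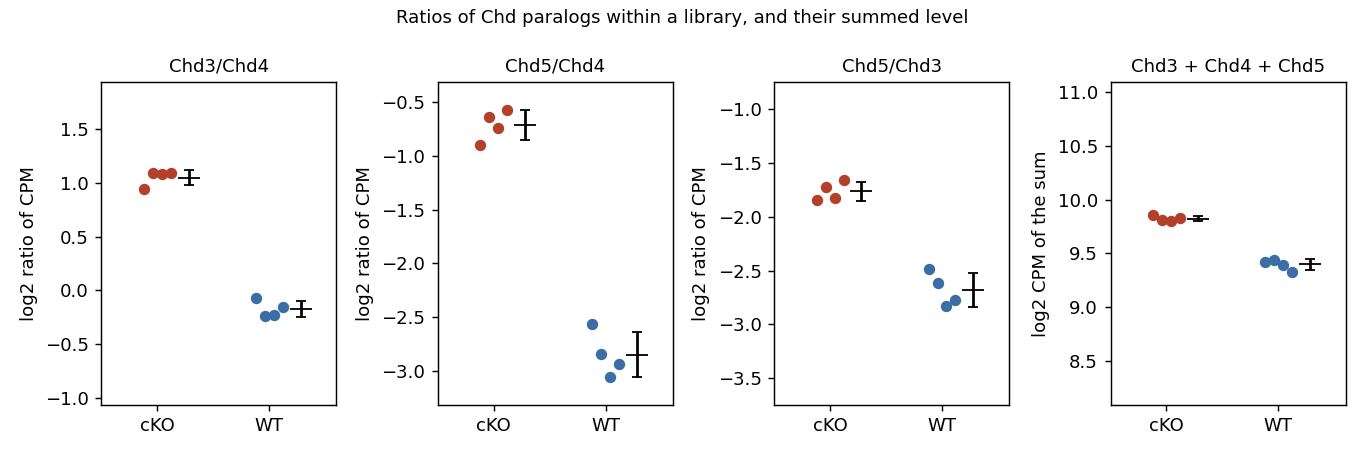
Log2 ratio of CPM between Chd paralogs within each library (first 3 panels) and log2 CPM of the 3 genes summed (last panel), in 4 cKO and 4 WT libraries with the mean and SD. The Chd5 to Chd4 ratio differs most, by 2.14, and each panel has all cKO points above all WT points.

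The reads of the 3 genes together were more numerous in cKO. They summed to 925, 898, 889 and 908 CPM in cKO libraries 1 to 4, against 686, 693, 674 and 644 CPM in WT libraries 1 to 4. The sum was 1.34-fold higher in cKO, a log2 difference of 0.43 ± 0.03 (exact two-sided permutation p = 0.0286, n = 4 per genotype). The ranges of the 3 genes given above already fix this separation, so the p adds no support beyond those levels. Transcript lengths were not at hand, so reads and not molecules were summed. Chd4 took 27.2 ± 1.2% of these reads in cKO and 49.4 ± 1.6% in WT (SD, n = 4 each). Chd3 took 56.2 ± 0.6% in cKO and 43.8 ± 0.9% in WT, and Chd5 took 16.6 ± 1.0% in cKO and 6.88 ± 0.83% in WT. Genotypes did not overlap in any of the 3 shares.

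**Figure D3:**
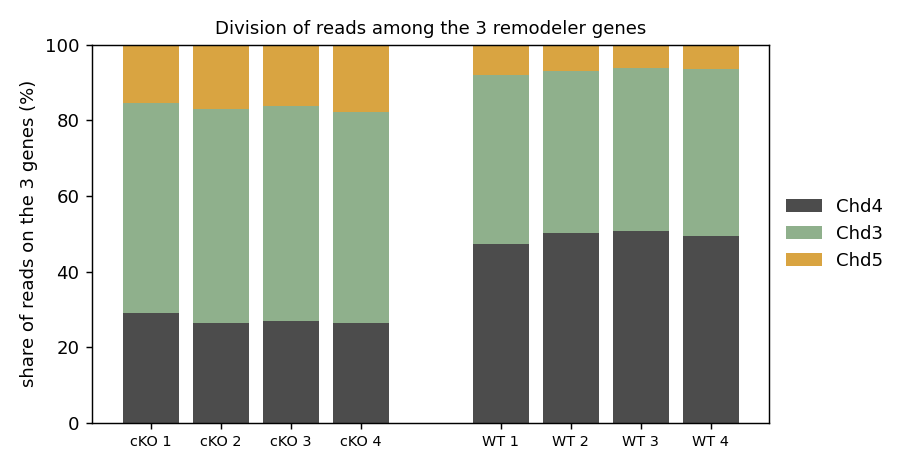
Share of the reads on Chd4, Chd3 and Chd5 that each gene took (y axis, percent, from 0 to 100) in cKO libraries 1 to 4 and WT libraries 1 to 4. Chd4 takes between 26.3% and 28.9% in cKO, and between 47.2% and 50.6% in WT.

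The other listed NuRD subunits differed by less than 0.3 log2. Of 15 subunit genes, the authors' deposited table lists 5 as higher and 2 as lower, and 8 are not listed. It lists 20.3% of all features tested, 11.0% as higher and 9.30% as lower, so 7 of 15 is above that background, but the 5 genes above were chosen with these results known. The background was also not matched to the abundance of these genes, nor to that of the gene lists below. Limma passed 4 of the higher and both of the lower genes. The other listed subunits are Mta3, which encodes a scaffold of the deacetylase module, and the deacetylase gene Hdac2. Mta3 held 6.27, 6.25, 6.15 and 6.38 log2 CPM in cKO libraries 1 to 4, against 6.06, 5.97, 5.99 and 5.88 log2 CPM in WT libraries 1 to 4. The groups did not overlap, and Mta3 rose by 0.29 ± 0.06 (limma adjusted p = 0.02), a call lost without cKO library 1 or 4 or WT library 2 or 4 (adjusted p from 0.0522 to 0.0596). The Mta3 call was also lost when libraries were centred on the median of the listed genes (adjusted p = 0.0821). It was lost too when libraries of the same number were blocked together (0.0749). Hdac2 differed by 0.23 ± 0.07 and did not pass limma (adjusted p = 0.055). Its libraries were at 6.24 to 6.43 log2 CPM in cKO and 6.02 to 6.21 log2 CPM in WT. With 1 library left out at a time, Hdac2 passed only without cKO library 1 (adjusted p = 0.0416), and the other fits reached 0.15. Not listed are Hdac1, Mta1, Mta2, Mbd2, Mbd3, Rbbp4, Rbbp7 and Gatad2b, which have no values here. The listed subunits had a median log2 difference of 0.29, and all 5508 listed genes one of 0.21; features that were not listed have no value for a median.

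None of 7 other genes of the CHD family, Chd1, Chd1l, Chd2, Chd6, Chd7, Chd8 and Chd9, is listed in this table, so only the NuRD paralogs of the family have values. Unlisted genes carry no p-value in the files, so how many of the 7 had an unadjusted p under 0.05 is not known.

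Among 23 genes for partners that bring NuRD or CHD4 to DNA or share its subunits, 4 are listed as higher, 6 as lower and 13 are not listed, beside the background of 20.3%. Limma passed 3 of the higher and 4 of the lower ones. Zfpm1, a zinc finger cofactor (FOG1) known to bind NuRD in blood cells, held 6.29, 6.13, 6.00 and 6.07 log2 CPM in cKO libraries 1 to 4, against 4.78, 4.91, 4.63 and 4.68 log2 CPM in WT libraries 1 to 4. All cKO libraries were above all WT libraries, and Zfpm1 rose by 1.37 ± 0.08 (limma adjusted p = 3.02e-05). Adnp encodes the homeodomain protein of ChAHP, a complex of CHD4 with ADNP and heterochromatin protein, and Adnp2 is its paralog. Adnp2 held 5.68, 5.80, 5.75 and 5.71 log2 CPM in cKO libraries 1 to 4, against 4.87, 4.83, 4.94 and 4.76 log2 CPM in WT libraries 1 to 4, and rose by 0.89 ± 0.06 (limma adjusted p = 3.37e-05). Adnp differed by 0.42 ± 0.15, with overlapping groups, and did not pass limma (adjusted p = 0.124). Of the fits with a single library left out, only that without WT library 2 passed (0.0413). The heterochromatin protein gene Cbx5 rose by 0.30 ± 0.06, a call lost when libraries were centred on the median of the listed genes (adjusted p = 0.0611).

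The lower partners differed by less than 0.5 log2. Nab2, a corepressor of Egr transcription factors known to bind CHD4, fell by 0.44 ± 0.08, to 5.05 to 5.36 log2 CPM in cKO, against 5.51 to 5.75 in WT. Pogz, which encodes a zinc finger protein that binds heterochromatin protein, fell by 0.32 ± 0.07. Sall2, of a zinc finger family known to recruit NuRD, fell by 0.29 ± 0.06, and Rcor1, the scaffold of the CoREST corepressor, fell by 0.22 ± 0.06. Sall1 and Bcl11a differed by -0.41 ± 0.14 and -0.27 ± 0.14, with overlapping groups, and did not pass limma (adjusted p = 0.103 and 0.416). With a single library left out, Sall1 passed only without cKO library 1 (0.0309). The limma adjusted p of the 4 that fell ran from 0.0107 to 0.0402, and 2 of these calls hang on single libraries. Sall2 lost its call without cKO library 3 or 4 or WT library 2 (adjusted p from 0.0519 to 0.0553), and Rcor1 without any library but cKO library 2 (0.0605 to 0.109). When libraries of the same number were blocked together, Nab2, Pogz and Rcor1 were not called (adjusted p = 0.0575, 0.0503 and 0.12).

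Other chromatin genes were looked up in the same way, against the same background of 20.3% listed (11.0% higher and 9.30% lower). Of 13 other remodeler ATPase genes, 1 is listed as higher and 2 as lower, a share near that background, and limma passed all 3. Smarca1, an ISWI ATPase, rose by 0.59 ± 0.08. Smarca4, the BRG1 motor of the BAF complex, fell by 0.33 ± 0.06 (limma adjusted p = 0.00731), to 7.70 to 7.90 log2 CPM in cKO, against 8.05 to 8.16 in WT. Smarcad1, another remodeler, fell by 0.20 ± 0.05, a call lost without any library but WT library 2 (adjusted p from 0.0812 to 0.132). Of 24 BAF subunit genes, 1 is listed as higher and 7 as lower, and limma passed 1 and 5 of these. Dpf1, the neuronal BAF subunit gene, rose by 1.11 ± 0.08 (limma adjusted p = 5.58e-05), with libraries at 5.71 to 5.97 log2 CPM in cKO and 4.58 to 4.77 in WT. Arid1a and Smarcc1, subunits of the same complex, each fell by 0.34, with SE of 0.08 and 0.07. The call of Arid1a was lost without any library but library 1 of cKO or WT (adjusted p from 0.0612 to 0.0697), and that of Smarcc1 without cKO library 1, 2 or 4 or WT library 2 or 4 (0.0536 to 0.0586). Of 13 other deacetylase and corepressor genes, 2 are listed as higher and 1 as lower, also near the background. Hdac11 rose by 0.48 ± 0.08, Hdac9 fell by 0.39 ± 0.08, and Hdac7 differed by 0.27 ± 0.08 without passing limma (adjusted p = 0.0569). With a single library left out, Hdac7 passed only without cKO library 2 (0.0287).

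**Figure D4:**
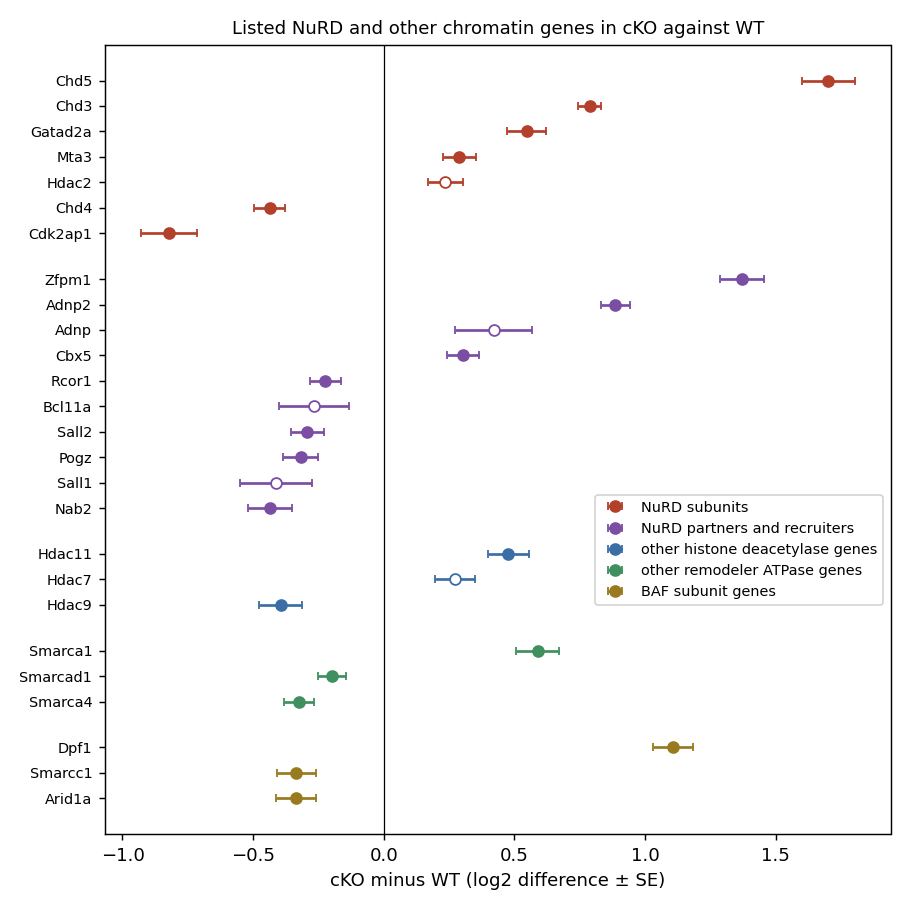
Log2 difference, cKO minus WT, with its SE (x axis) for the listed NuRD subunits and partners and for up to 3 listed genes of each other chromatin list (rows, colored by list). Filled points passed limma and open points did not, and Chd5, Zfpm1 and Dpf1 lie beyond 1 log2 unit.

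Markers of other cells were mostly listed as lower in cKO. The background for each marker list is the 20.3% of all features tested that are listed, 11.0% as higher and 9.30% as lower. It was not matched to the abundance of the markers, so the counts are given as a description. Of 62 markers of Purkinje cells, interneurons, oligodendrocytes, astrocytes and Bergmann glia, microglia, vascular and meningeal cells, 37 are listed, 36 of them lower in cKO and 1 higher, and 25 have no value. Limma passed 19 of the lower ones, but 0 meningeal or microglial markers and 2 of 6 listed oligodendrocyte markers. The sums below hold listed markers only. These were listed for differing between the same libraries, so sums that do not overlap between genotypes add no separate evidence. The listed Purkinje markers summed to 7271 to 7755 CPM in cKO and 8547 to 9052 CPM in WT, and the astrocyte and Bergmann glia markers to 3086 to 3359 CPM in cKO and 3601 to 3775 CPM in WT. The sums were 571 to 645 CPM in cKO and 674 to 759 CPM in WT for interneurons, 105 to 125 CPM in cKO and 138 to 167 CPM in WT for vascular cells, and 266 to 280 CPM in cKO and 309 to 404 CPM in WT for meningeal cells. Genotypes overlapped in the oligodendrocyte sum, at 4950 to 5217 CPM in cKO and 5045 to 6742 CPM in WT, and in the 1 listed microglial marker Ctss, at 15.4 to 19.4 CPM in cKO and 11.1 to 16.7 CPM in WT. Granule neuron markers, the main neurons of cerebellum, summed to 4621 to 4718 CPM in cKO and 4518 to 4924 CPM in WT, with 4 listed as higher and 4 as lower. Listed markers of newborn neurons summed to 554 to 621 CPM in cKO and 201 to 257 CPM in WT, with 6 listed as higher and 2 as lower. Without Elavl2 and Nhlh1, chosen after their values were seen, the other 6 summed to 219 to 233 CPM in cKO and 173 to 224 CPM in WT, and the genotypes overlapped. Elavl2, an RNA-binding protein gene, averaged 8.09 log2 CPM in cKO and 4.85 in WT, and Nhlh1, a transcription factor gene, 6.25 log2 CPM in cKO and -1.85 in WT. Listed markers of proliferating progenitors summed to 27.7 to 33.3 CPM in cKO and 38.0 to 44.0 CPM in WT, with 1 listed as higher and 3 as lower. Of these, the cell cycle kinase gene Cdk1 rose by 0.95 ± 0.23, with 6 to 13 reads per cKO library and 3 to 6 per WT library, and the hedgehog pathway genes Gli1 and Gli2 fell by 0.42 ± 0.10 and 0.53 ± 0.10. The call of Cdk1 was lost without cKO library 2 or 3 or WT library 1, 3 or 4 (adjusted p from 0.0748 to 0.0879). It was also lost with a pseudocount of 5 CPM (limma adjusted p = 0.186). The call of Gli1 was lost without cKO library 3 or 4 or WT library 2 or 4 (0.0717 to 0.076). Cdk1 averaged -0.38 log2 CPM in cKO and -1.32 in WT, so the progenitor sum rests mostly on the other listed genes. Unlisted markers have no value, so which of them are at 0 is not known. Their part in the changes of the NuRD genes was not tested.

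The genes whose levels over the 8 libraries were most like those of the 3 paralogs were looked up among 2678 named genes at or above the median abundance of the table. These genes were listed for differing between genotypes, and the libraries are shared, so a high likeness is common among them and is given as a description. Chd4 was most like Zdhhc14, a palmitoyltransferase gene (Pearson r = 0.989), Mtcl1, a microtubule crosslinker gene (0.986), and Smarca4 (0.984). Zdhhc14 and Mtcl1 fell by 0.45 ± 0.05 and 0.48 ± 0.06, close to the fall of Chd4, and cKO library 1 was the highest cKO library for these and for Chd4. Among the genes most like Chd3 were the nociceptin receptor gene Oprl1 (0.998) and the laminin gene Lama5 (0.998), which rose by 2.15 ± 0.09 and 2.47 ± 0.08. Chd5 was most like Oprl1 (0.998), Marcksl1 (0.997), a gene for an actin-regulating protein, and the proline transporter gene Slc6a7 (0.997). Marcksl1 rose by 1.41 ± 0.07 and Slc6a7 by 1.76 ± 0.11.

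None of the 5 genes is listed after rotarod training, where the authors' deposited table lists 908 genes, or 3.38% of 26900 features tested (2.06% higher and 1.31% lower), and no other NuRD subunit of the 15 is listed there either. Of the 23 partner genes, 3 are listed, all as higher: Rcor1, Nab1, a paralog of Nab2, and Zfp592, a zinc finger gene. Rcor1 held 5.92 to 6.04 log2 CPM in rotarod libraries and 5.48 to 5.73 log2 CPM in rest libraries, a difference of 0.36 ± 0.07 that did not pass limma over all features (adjusted p = 0.0804). Nab1 and Zfp592 differed by 0.37 ± 0.08 and 0.27 ± 0.08 (adjusted p = 0.121 and 0.308). The BAF genes Arid1a, Dpf2 and Smarcd2 are also listed as higher, by 0.32 ± 0.08, 0.30 ± 0.09 and 0.31 ± 0.10, none past limma (adjusted p from 0.2 to 0.423). In cKO the genes Rcor1, Arid1a and Dpf2 had log2 differences of -0.22 ± 0.06, -0.34 ± 0.08 and -0.19 ± 0.05. Their limma adjusted p were 0.0402, 0.0235 and 0.0432, and the calls of Rcor1 and Arid1a hang on single libraries, as given above. Nab1, Zfp592 and Smarcd2 are not listed for cKO over WT and have no value there. The libraries of the 2 comparisons are separate.

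Sync-TRAP, made at day 12, also lists none of the 5. Its table of pull-down cKO over pull-down WT holds 38 genes, or 0.147% of 25778 features tested (0.116% higher and 0.0310% lower), and its table of pull-down over input in WT holds 51, or 0.194% of 26237 (0.114% higher and 0.0800% lower). Neither lists a NuRD subunit, another CHD gene or a NuRD partner, and Chd4 itself has no value in these tables, so the deletion could not be checked in the pull-down. Of the other chromatin genes, the authors' deposited table of pull-down over input lists Smarca4 and Arid1b as higher in the pull-down, with log2 fold changes of 1.04 and 2.07.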

How the data were processed

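Each deposited gene table gives a log2 CPM value for every library, computed with a prior count, beside the authors' log2 fold change, likelihood ratio score, p-value and its adjusted form, as the file headers name them. The submitters' processing notes name Bowtie, mm9 and edgeR; no source used here gives versions, the counter or filters. Only genes with adjusted p under 0.05 are listed, so a gene not listed has no value.

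Repeated lines were removed (5557 became 5508 in the cKO table, 913 became 908 in the rotarod table). Features tested were read from adjusted p times rank over p. Of the 5508 cKO identifiers, 5482 matched the reference names. Subtracting the lowest value left whole multiples of 1 read, all (100%) within 0.1 read, which gave reads and effective depth. Intervals of counting error cover counting alone. Limma 3.58.1 (R 4.3.3) was fitted on the deposited log2 values of all listed genes of a table, with no added pseudocount, and adjusted by Benjamini-Hochberg over all features tested. Its variance prior comes from called genes alone. It was tested on simulated data. Ratios used an exact permutation test (scipy 1.17.1).

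The fixed design foresaw a sum per kilobase; lengths were not at hand, so reads were summed. Members and lists were chosen with earlier results of these data known. Named genes are the 5 members, all listed NuRD subunits, CHD genes and partners, up to 3 of each other list by absolute difference, and 3 by likeness to each paralog, of which 1 is not reported here; some named by the rule for cell types appear only in sums. Libraries of the same number in both genotypes share only a number in the labels. Their deviations correlated at -0.013, 0.368, 0.235 and 0.237; pairing was taken only where every pair exceeded 0.1, so the fits have no replicate block. Chromatin samples and region lists were not used here.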

Additional observations from a re-analysis of the deposited data

Results flagged for a closer look

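In groups of 4 libraries, a library was marked when its gap to the nearest other library exceeded the 95% critical value of Dixon's ratio (gap over range), which chance does in about 1 group in 20. Of 128 groups examined, 6 were marked. Chd4 was 8.06 log2 CPM in cKO library 1, against 7.90 in each of the other 3, and the log2 ratio of Chd3 to Chd4 was 0.943 there, against 1.08 to 1.09. Without that library Chd4 differed by -0.48 from WT. In the same library Arid1a was 7.96 log2 CPM, against 7.72 to 7.76, and the endothelial gene Cdh5 was 4.002, against 3.82 to 3.84. In WT library 1, the neuronal RNA-binding protein gene Elavl2 was 5.005 log2 CPM, against 4.79 to 4.80. Slc6a7 was 5.38 log2 CPM in cKO library 3, against 5.57 to 5.60 in the other cKO libraries.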

How the results depend on the processing

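For the 5 members, 94 alternatives were computed (limma with a trend, pseudocounts, an abundance limit, adjustment over listed genes, centring, a replicate block, libraries 1 and 2 or 3 and 4 alone, each library left out and the authors' test). None reversed and 90 stayed on the same side of the threshold. The other 4 kept their direction with only 2 libraries per genotype: Chd4 gave -0.41 (adjusted p = 0.177), Gatad2a 0.56 and Cdk2ap1 -0.68 (adjusted p = 0.114 for both) in libraries 1 and 2, and Chd4 -0.46 (adjusted p = 0.0662) in libraries 3 and 4. These fits have fewer samples. All 94 alternatives reuse the libraries in which the members were listed for differing, so their agreement adds no separate evidence. With each library left out in turn, Chd4 ran from -0.48 to -0.41, Chd3 from 0.77 to 0.81, Chd5 from 1.65 to 1.79, Gatad2a from 0.50 to 0.59 and Cdk2ap1 from -0.89 to -0.76, all past limma.

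The Chd5 to Chd4 ratio differed by 1.94 in libraries 1 and 2 and by 2.34 in libraries 3 and 4, and the Chd5 to Chd3 ratio by 0.76 and 1.06; the cause was not tested. The count of higher NuRD subunits was 5 in the authors' calls, 4 in limma, 3 with the replicate block, 3 after centring on the median of listed genes, 3 at a fold change of at least 0.5 log2, and 2 in libraries 1 and 2, and 3 in libraries 3 and 4; with a library left out it ran from 3 to 4. The count of lower ones was 1 at that fold change and 0 in libraries 1 and 2 and 1 in libraries 3 and 4. Centring and these subsets were chosen for these counts after seeing the data. Centring, which moves listed genes by 0.10, also turned the limma split of all listed genes, 1622 higher and 2180 lower against 2214 and 1365. The replicate block left all 5 members called (Chd4 adjusted p = 0.0177) and gave a ratio p of 0.125, the smallest 4 pairs allow. Under the block, Mta3 (adjusted p = 0.0749), Nab2 (0.0575), Pogz (0.0503), Rcor1 (0.12), Smarcad1 (0.09), Arid1a (0.099), Smarcc1 (0.0879) and Gli1 (0.0528) were not called; 3 of the 4 same-numbered pairs correlated above 0.1. Over other named genes, 898 of 1119 alternatives kept their side, 166 lost a call, 55 gained one and none reversed. Alternatives with transcript or coding length were not run, for want of lengths. Those for members in the rotarod and Sync-TRAP tables gave no value, since no member is listed. Low counts limit Cdk2ap1 most.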

Other observations

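Genes beside the members on the chromosome were looked up in RefSeq order (GRCm38.p6), the nearest 2 protein-coding genes on each side. Of 20 such neighbors, 7 are listed in the cKO table, beside 20.3% of all features tested; with so few genes no more is read from the count. Lpar5, a lysophosphatidic acid receptor gene beside Chd4, differed by 2.38 ± 0.21, and Nop2, a ribosome biogenesis gene on the other side of Chd4, by -0.28 ± 0.07. Beside Chd3, the potassium channel subunit gene Kcnab3 differed by 0.73 ± 0.11 and the trafficking gene Trappc1 by -0.23 ± 0.06. Nphp4, near Chd5, differed by 0.38 ± 0.10. Beside Cdk2ap1, Mphosph9 differed by -0.28 ± 0.11 and 2810006K23Rik by -0.47 ± 0.11. No neighbor of Gatad2a is listed. These genes were named by position after the values of the members were known.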
